A study of Homo sapiens with 6 samples.

Results

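The keratin genes (KRT followed by a number) and the keratin-associated protein genes (KRTAP) were examined for histone H4 lysine 5 lactylation, H4K5la, in a liver cancer line. Members were all protein-coding autosomal genes of the RefSeq annotation with such a symbol, which gave 149 genes, 55 KRT and 94 KRTAP, of 19126 protein-coding autosomal genes. Members on a chromosome whose spans lay up to 500 kb apart were joined, which gave 6 clusters. The window of a gene was its span plus 1 kb on either side, and a gene was counted as carrying a peak in a library when a peak of that library shared at least 1 bp with this window. Membership used the gene symbol only, and no measured value.

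H4K5la was mapped by chromatin immunoprecipitation and sequencing (ChIP-seq) in PLC/PRF/5, an established human hepatocellular carcinoma line. The control group held 2 libraries of untreated cells, replicates 2 and 3, and the lactate group held 2 libraries, also numbered 2 and 3, of cells kept with 20 mM lactate for 24 h. All 4 libraries came from this line and were precipitated with the same antibody. Inputs (2 libraries) come without peaks and are not analysed here. The labels do not say whether the libraries of a group came from separate cultures, so the p-values reflect library spread alone, possibly technical. The lists held 52215 and 52959 peaks in control replicates 2 and 3, and 37951 and 38402 in lactate replicates 2 and 3. The cells were measured in bulk, so a mark in fewer cells and a weaker mark in each cell cannot be told apart.

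Keratins are the intermediate filament proteins of epithelia. A type I chain, encoded on chromosome 17 except for KRT18, pairs with a type II chain, encoded on chromosome 12. Simple epithelia use KRT8 with KRT18, and ductal cells add KRT7 and KRT19, stratified epithelia use pairs such as KRT5 with KRT14 in the basal layer and KRT1 with KRT10 above it, and the hair follicle uses its own root sheath and hair shaft chains. Hepatocytes are known for a filament network of KRT8 and KRT18 alone. KRTAP genes are short genes that encode the cysteine-rich or glycine- and tyrosine-rich proteins that embed keratin filaments in the hair shaft. Lactylation is the addition of a lactyl group to lysine, and on histones it is found at active chromatin. Expression was not measured here, so which of these genes are silent in this line was not tested.

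The members carried peaks less widely than coding genes at large, more widely than short coding genes, and unevenly between clusters. A peak lay in the windows of 45 members in control replicate 2, 45 in control replicate 3, 33 in lactate replicate 2 and 34 in lactate replicate 3, or 30.2, 30.2, 22.1 and 22.8% of the 149. Over all autosomal coding genes the shares were 45.2, 46.9, 37.9 and 38.4%. Both lactate libraries lay below both control libraries, with a ratio of the group means of 0.744, and an exact permutation test (two-sided, all 6 ways to assign the labels) gave p = 0.333, the smallest value possible with 2 libraries a group. The ratio over all coding genes was 0.828, and over the 951 coding genes no longer than the longest KRTAP gene it was 0.684.

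A peak in all 4 libraries was found for 25 members (16.8%, against 29.6% of all coding genes), in both control libraries only for 9 (against 5.8%), and in both lactate libraries only for 0 (against 1.06%). With equal numbers of peaks per list, KRT28, KRT36, KRT78, KRTAP10-3 and KRTAP10-9, of these 9, no longer had a peak in both control libraries. A further 22 members had a peak in some other set of libraries (18.8% of all coding genes), and 93 had none in any library (44.7% of all coding genes). Length bears on these counts, because KRTAP genes have a median span of 828.5 bp and coding genes one of 24476.5 bp. Among the 951 autosomal coding genes no longer than the longest KRTAP gene, 1643 bp, 16.6, 16.3, 10.9 and 11.6% carried a peak in the 4 libraries, in the order control 2, control 3, lactate 2, lactate 3, which is the order of all lists of 4 values that follow. Of these short genes 7.68% had a peak in all 4 libraries, 3.89% in both control libraries only, 1.05% in both lactate libraries only and 9.25% in another set, or 21.9% in at least 1. The members' shares lay above those of the short genes in every library. The members include the KRT genes, which are longer.

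The KRT genes, with a median span of 6433 bp, carried a peak in 24, 25, 18 and 16 of 55, and 32 (58.2%) did so in at least 1 library, close to the 55.3% of all coding genes. The KRTAP genes carried one in 21, 20, 15 and 18 of 94. Of the 24 KRTAP genes with a peak in any library, 16 belonged to a single cluster on chromosome 21, in which every member was covered. Outside that cluster 8 of 78 KRTAP genes (10.3%) had a peak in any library, against 21.9% of the short coding genes. Of these 78, 1, KRTAP5-5, had one in all 4, a call that depended on the settings.

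**Figure D1:**
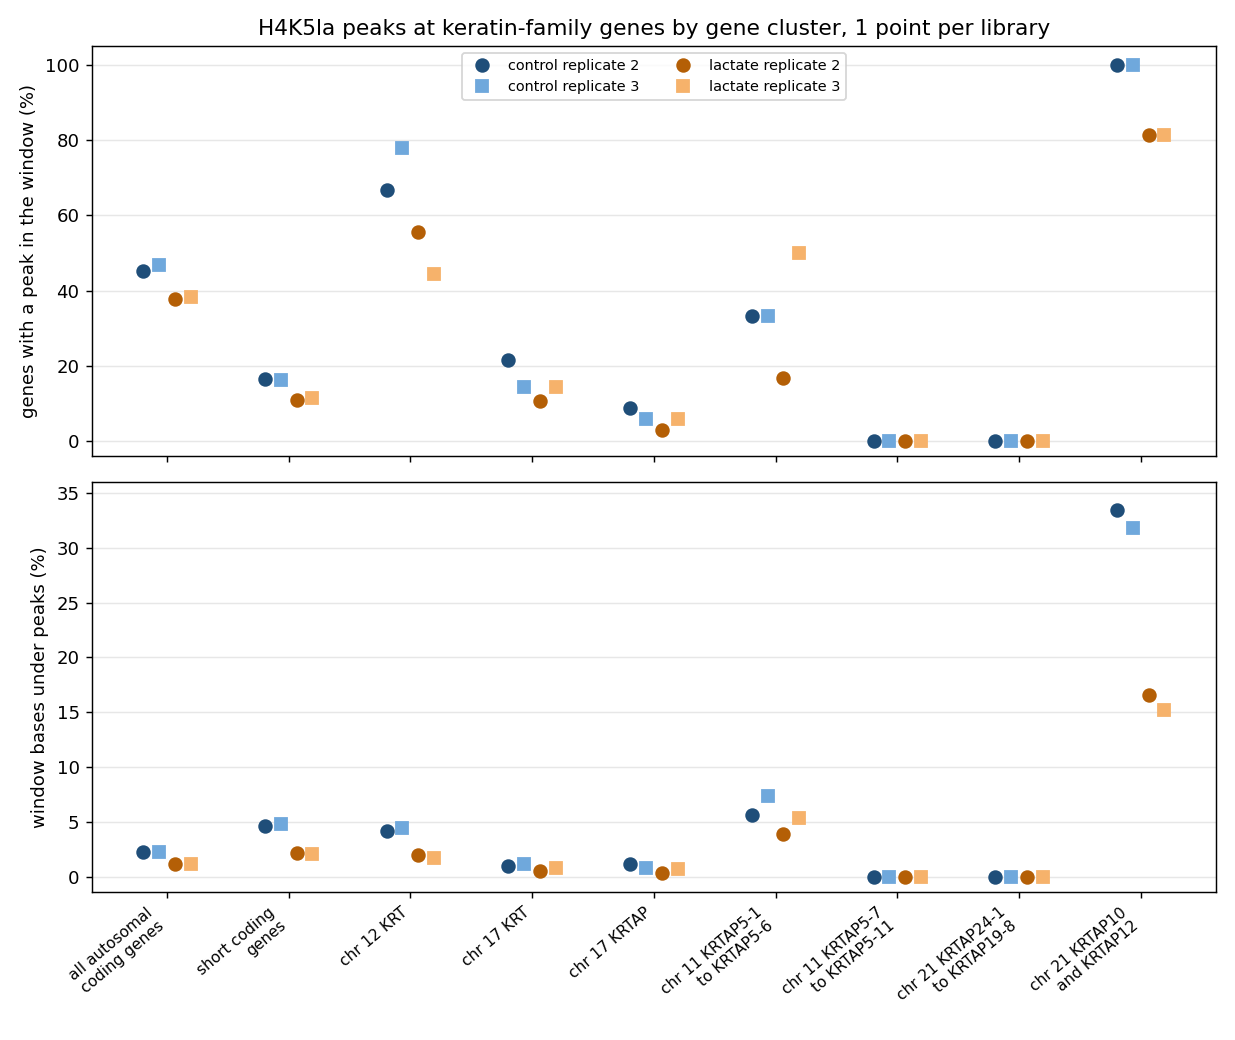
Share of genes with a peak in the window (upper panel, percent) and share of window bases under peaks (lower panel, percent), 1 point per library, for all autosomal coding genes, short coding genes and the keratin-family clusters. The KRTAP10 and KRTAP12 genes of chromosome 21 stand at 100% of genes in both control and 81.3% in both lactate libraries, while 2 clusters of KRTAP genes stand at 0 in all 4.

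The peaks themselves were narrow. Peaks at member windows numbered 68, 69, 40 and 41, with median widths of 461, 468, 403.5 and 390 bp, against 547, 537, 448 and 437 bp for all peaks of the same lists. Between 9 and 57 reads lay at their summits, where the whole number of reads was recovered from the fold enrichment and the p-value that the authors' caller gave. A fold, here and below, is the authors' enrichment over the local background at the summit. It ranks peaks within 1 list and is not compared between libraries.

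Where a KRT gene carried a peak near its start, the summit lay mostly inside the gene. The RefSeq promoter table holds the start site of 114 members, 34 KRT and 80 KRTAP, and of 15101 autosomal coding genes in all. Summits lay within the first 500 bp of the gene for 10, 9, 6 and 6 of the 34 KRT genes, or 29.4, 26.5, 17.6 and 17.6%, against 6.83, 7.86, 4.4 and 4.7% of all genes with an entry. Within the 500 bp before the start they lay for 1, 0, 0 and 0, against 2.73, 2.98, 1.99 and 1.85%, and no KRT gene had one there in all 4 libraries, against 0.351%. This distance was chosen after the summit positions were seen, so these shares are a description.

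KRT75, KRT2 and KRT9 had a summit in the first 500 bp in all 4 libraries (3 of 34, 8.82%, against 1.37% of all genes with an entry). KRT75, the chain of the companion layer of the hair follicle, had it 189, 166, 128 and 121 bp after the start. KRT2, a chain of the upper epidermis, had it 324, 280, 277 and 282 bp after the start. KRT9, the chain of palm and sole epidermis, had it 141, 103, 115 and 133 bp after the start. For each of these genes the 4 summits thus lay close together, on the same side of the start. KRT79, of the hair canal and sebaceous duct, had summits 229, 223 and 232 bp after the start in control replicate 3 and both lactate libraries, and at -183 bp, which is before the start, in control replicate 2, where the peak was 1266 bp wide. KRT82 lacked the start-site peak in control replicate 2 and KRT5 lacked it in lactate replicate 2.

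**Figure D2:**
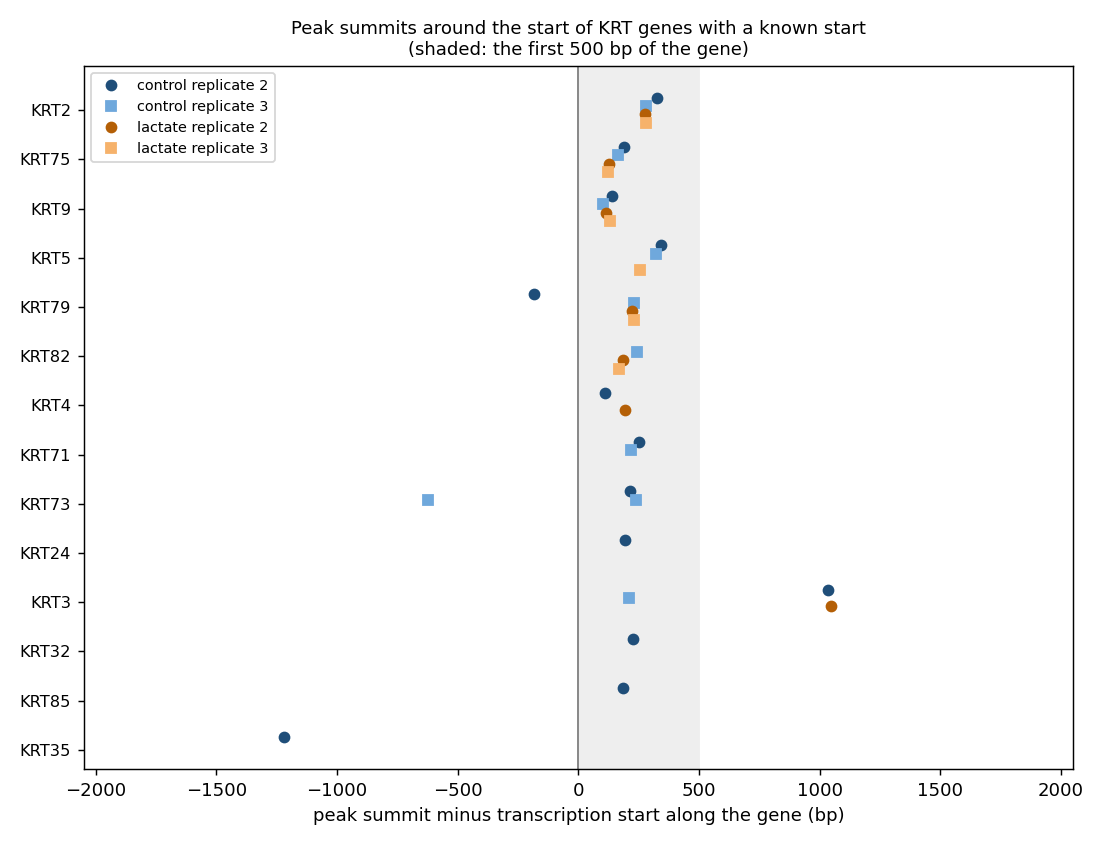
Position of each peak summit relative to the transcription start of KRT genes, in bp along the gene (x axis), for the genes (y axis) with a summit within 2000 bp of the start, with 1 point per peak coloured by library. Nearly all points near the start fall in the shaded first 500 bp, and KRT2, KRT75 and KRT9 have a point of every library there.

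Most members have start regions that are poor in CG and carry a TATA motif. Over the 300 bases from 250 before to 50 after the start, the median GC content was 43.7% in members and 63.0% in all genes with an entry, and the median number of CG dinucleotides was 2 against 22. The letters TATAAA, searched on both strands, stood in 84 of the 114 members (73.7%) and in 9.71% of all entries. A peak overlapped this stretch in 17, 18, 12 and 11 members (14.9, 15.8, 10.5 and 9.65%), against 9.11, 10.2, 5.54 and 5.59% of all entries, and in all 4 libraries in 8 members, 3 KRT and 5 KRTAP (2.62% of all entries). The 3 KRT genes were KRT75, KRT79 and KRT9, with GC contents of 58.0, 67.3 and 61.3%, 8 CG dinucleotides each and no TATAAA. The 22 KRT genes with no peak there in any library had a median GC content of 44.0%, and 15 of them held TATAAA. Of the 9 KRT genes with a peak there in 1 to 3 libraries, 5 held it. The KRTAP genes showed no such contrast in TATAAA: 4 of the 5 with a peak there in all 4 libraries held it, as did 54 of the 68 with none. In GC content they did differ. The median was 50.7% in KRTAP genes with a peak there in all 4 libraries, 55.7% in 1 to 3, and 41.2% with none.

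The 250 bases before the start of 7 members, chosen after the values were seen, are printed here 5′ to 3′ along the gene from RefSeq (GRCh38.p14), with TATAAA in capitals. The first 5 lay under peaks and the last 2 lay in regions without any, so that the composition can be compared.
KRT75, chr12:52434372-52434621, minus strand: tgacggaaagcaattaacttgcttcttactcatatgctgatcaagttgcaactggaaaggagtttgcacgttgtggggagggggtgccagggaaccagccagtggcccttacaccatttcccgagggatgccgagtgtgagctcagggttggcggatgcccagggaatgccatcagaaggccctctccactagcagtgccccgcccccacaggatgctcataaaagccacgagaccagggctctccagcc
KRT79, chr12:52834312-52834561, minus strand: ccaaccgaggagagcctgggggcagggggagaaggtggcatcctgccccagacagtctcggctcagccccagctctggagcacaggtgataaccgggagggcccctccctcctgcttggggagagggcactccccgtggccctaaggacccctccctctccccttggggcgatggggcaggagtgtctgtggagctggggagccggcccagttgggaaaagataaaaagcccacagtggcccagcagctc
KRT9, chr17:41572060-41572309, minus strand: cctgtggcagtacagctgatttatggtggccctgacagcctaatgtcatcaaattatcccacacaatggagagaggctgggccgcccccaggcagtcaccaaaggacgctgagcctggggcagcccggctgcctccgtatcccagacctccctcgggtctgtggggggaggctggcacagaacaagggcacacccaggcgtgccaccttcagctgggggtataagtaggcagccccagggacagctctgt
KRTAP12-2, chr21:44666928-44667177, minus strand: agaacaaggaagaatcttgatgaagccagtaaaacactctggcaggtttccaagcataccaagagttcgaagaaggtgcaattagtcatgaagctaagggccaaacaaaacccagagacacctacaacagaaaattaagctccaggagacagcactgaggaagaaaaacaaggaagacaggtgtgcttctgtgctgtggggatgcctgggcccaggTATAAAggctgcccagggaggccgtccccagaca
KRTAP10-6, chr21:44592506-44592755, minus strand: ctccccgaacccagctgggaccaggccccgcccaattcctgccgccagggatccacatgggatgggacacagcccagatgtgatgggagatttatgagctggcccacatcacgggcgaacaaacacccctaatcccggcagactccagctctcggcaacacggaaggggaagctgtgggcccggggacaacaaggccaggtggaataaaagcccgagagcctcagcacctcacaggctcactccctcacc
KRTAP13-1, chr21:30395781-30396030, plus strand: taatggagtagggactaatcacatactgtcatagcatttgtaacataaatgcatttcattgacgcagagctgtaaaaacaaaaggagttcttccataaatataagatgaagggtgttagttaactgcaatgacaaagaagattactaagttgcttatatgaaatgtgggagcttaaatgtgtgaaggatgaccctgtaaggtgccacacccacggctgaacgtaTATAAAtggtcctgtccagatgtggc
KRTAP4-7, chr17:41083900-41084149, plus strand: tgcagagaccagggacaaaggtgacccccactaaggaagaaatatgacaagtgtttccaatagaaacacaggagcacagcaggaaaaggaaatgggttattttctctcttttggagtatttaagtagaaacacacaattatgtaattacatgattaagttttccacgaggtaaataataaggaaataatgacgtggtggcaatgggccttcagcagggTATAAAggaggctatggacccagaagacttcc

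Of these 250 bases, 141, 0, 51 and 136 lay under a peak at KRT75, 250, 250, 12 and 103 at KRT79, and 40, 250, 250 and 161 at KRT9. At KRTAP12-2, a hair shaft protein gene, they numbered 0, 55, 152 and 69, and at KRTAP10-6, of the same cluster, 250, 250, 88 and 65. Those of KRTAP13-1 and KRTAP4-7 were at 0 in all 4 libraries. TATAAA stood in the printed stretch of KRTAP12-2 as well as in those of KRTAP13-1 and KRTAP4-7, so the letters were found both under peaks and away from them.

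Of the keratins of simple epithelia, KRT7 and KRT8 had a peak in some libraries, and KRT18 and KRT19 in none. Together these 4 genes gave 1, 2, 1 and 2 with a peak, or 25, 50, 25 and 50%, which for so few genes is near the 45.2, 46.9, 37.9 and 38.4% of all coding genes, and none had one in all 4 libraries. Their merged windows held 1210, 1732, 327 and 655 bases under peaks, or 1.36, 1.95, 0.367 and 0.736% of the window bases. Both lactate libraries lay below both control libraries (ratio 0.334, exact permutation p = 0.333), against 0.522 over all coding genes. Leaving out lactate replicate 3 brought the ratio of these 4 genes to 0.222, and leaving out lactate replicate 2 brought it to 0.445. KRT7 held 1210, 1372, 0 and 330 of the bases and KRT8 0, 360, 327 and 325, so the order rests on KRT7.

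KRT7, the type II chain of ductal and glandular epithelia (chr12:52233243-52255853), had 3 peaks inside the gene in each control library, 0 in lactate replicate 2 and 1 in lactate replicate 3. The control peaks lay near the same 3 places: chr12:52244227-52244650, chr12:52245270-52245624 and chr12:52248418-52248848 in control replicate 2, with 29, 28 and 24 reads at the summit, and chr12:52244200-52244613, chr12:52245298-52245679 and chr12:52248361-52248936 in control replicate 3, with 22, 30 and 33. The lactate replicate 3 peak, chr12:52245286-52245615 with 21 reads, covered the second of these places. Its fold of 5.66 ranked it 75.1% of the way down that list.

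KRT8, the type II chain of simple epithelia, is annotated over 52670 bp (chr12:52897191-52949860), an extent that runs into the neighbouring KRT18, so their windows share bases. It had 1 peak in control replicate 3 (chr12:52918331-52918690, 29 reads), lactate replicate 2 (chr12:52918330-52918656, 15 reads) and lactate replicate 3 (chr12:52918335-52918659, 27 reads), at the same place in each, and 0 in control replicate 2. KRT18, its type I partner (chr12:52948855-52952906), had no peak, and the nearest lay 87510, 30165, 30199 and 30196 bp away. KRT19, the smallest type I chain, found in ducts (chr17:41523617-41528308), had none either, with the nearest peak 20266, 1354, 2125 and 2101 bp away. KRT18 thus lay farther from a peak than KRT19 in every library.

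Of the other simple-type keratins, only KRT80 had a peak in all 4 libraries. KRT80, a type II chain of differentiating epithelia (chr12:52168996-52192014), carried 6, 8, 2 and 2 peaks with 2840, 4692, 1634 and 1348 bases under them, of which 1128 bases were under a peak in all 4 libraries. Its summit of highest fold had 32, 31, 24 and 26 reads. The 2 peaks left in both lactate libraries, for example chr12:52172944-52173827 and chr12:52185409-52185872 in lactate replicate 3, were also present in both control libraries. KRT23, a type I chain of chromosome 17, had 1 peak in 3 libraries, with 21, 16 and 20 reads, and none in control replicate 3. KRT20, the intestinal chain, had none.

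The type II cluster of chromosome 12 held more peaks than the type I cluster of chromosome 17. It runs over 785.911 kb (chr12:52167996-52953906) with 27 KRT genes, of which 18, 21, 15 and 12 carried a peak. All 4 libraries had a peak at 10 of these genes, the control pair alone at 4, other sets at 8, and none at 5. The cluster held 49, 51, 31 and 24 peaks, or 62.3, 64.9, 39.4 and 30.5 per Mb, and the 500 kb on either side held 43, 49, 24 and 30 per Mb. Gene spans were covered over 4.21, 4.97, 2.15 and 1.89% of their bases, and the sequence between genes over 2.09, 1.41, 1.13 and 0.755%.

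The longest stretch of this cluster without a peak in any library was 76.949 kb and held KRT6B, KRT6C and KRT6A, the chains of injured and palmoplantar epidermis. The other members without a peak were KRT77 and KRT18. KRT6A, KRT6B and KRT6C are near-identical copies, and so are the hair chains KRT81, KRT83 and KRT86. How the aligner placed reads that match several copies is not given in the sources used here, and the part of read placement in these counts was not tested.

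**Figure D3:**
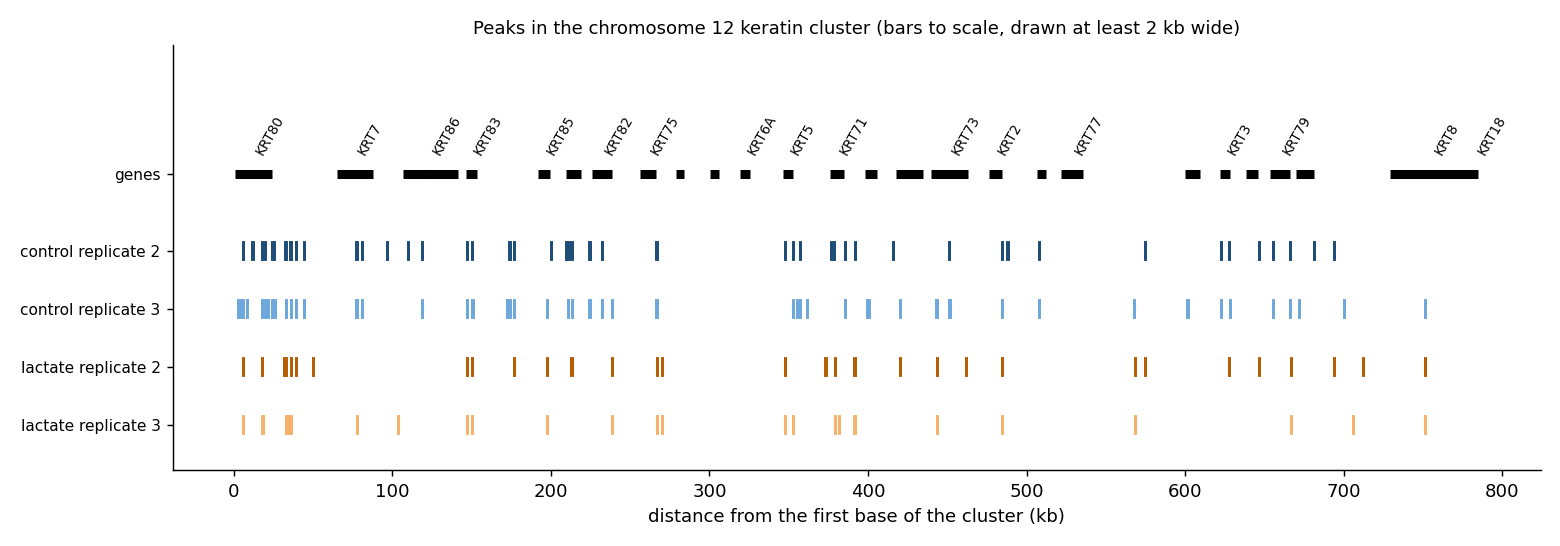
Peaks of the 4 libraries (coloured bars) under the genes (black bars, some labelled) of the chromosome 12 keratin cluster, in kb from its first base, with narrow bars drawn 2 kb wide. Peaks spread along the cluster in every library, the gap over KRT6A is empty in all 4, and the lactate rows hold 31 and 24 peaks against 49 and 51 in control.

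Among the hair shaft chains of this cluster, KRT83, KRT85 and KRT82 had a peak in all 4 libraries. KRT83, of the hair cortex, had 2 peaks in each library, over 1020, 890, 741 and 754 bases, with 491 bases common to all 4. At KRT85, a chain of hair matrix and cuticle, the control replicate 2 peak lay at the gene's start (chr12:52367147-52367535, 27 reads) and the others lay farther inside the gene (chr12:52364926-52365286, 17 reads, in control replicate 3), so 0 bases were common to all 4. At KRT82, of the hair cuticle, the peaks also did not share a base in all 4. KRT86 and KRT81, cortex chains whose annotated spans overlap, carried a peak in both control libraries only, and the control peaks at KRT81 (30 and 29 reads) were counted for both genes. KRT84, of the tongue papillae, had 3, 2, 1 and 0 peaks.

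Over all 17 hair shaft keratins, 8, 7, 4 and 4 had a peak, or 47.1, 41.2, 23.5 and 23.5%. Over all coding genes the shares were 45.2, 46.9, 37.9 and 38.4%. Both lactate libraries lay below both control libraries (ratio 0.533, exact permutation p = 0.333). The ratio was 0.828 over all coding genes and 0.684 over the short coding genes. With equal lists the ratio of all members was 1.02, and that of the hair shaft keratins was not recomputed. The 9 root sheath keratins gave 4, 6, 4 and 3 (44.4, 66.7, 44.4 and 33.3%), with groups that overlap (exact permutation p = 0.667). Of these, KRT75, KRT71 and KRT73 carried a peak in all 4 libraries. KRT75 had 1 peak of 551, 443, 375 and 471 bp with 22, 26, 17 and 32 reads at the summit, and 309 bases lay under it in all 4 libraries. In lactate replicate 3 its fold of 14.3 placed it within the top 3.59% of that list. KRT71 and KRT73, chains of the inner root sheath, had no base common to all 4. At KRT71 a peak lay within the first 500 bp of the gene in both control libraries (chr12:52552712-52553124 with 26 reads in control replicate 3) and an inner site in both lactate libraries (chr12:52546245-52546581 and chr12:52546229-52546552, 16 reads each), where control replicate 2 had a peak too. At KRT73 a summit likewise lay within 500 bp after the start given in the RefSeq promoter table in control replicates 2 and 3, and in no lactate library. KRT74 had a peak in control replicate 3 only, and KRT72 in 1 control and 1 lactate library.

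The 21 keratins of stratified epithelia gave 9, 9, 7 and 5 genes with a peak (42.9, 42.9, 33.3 and 23.8%). Their ratio was 0.667 (exact permutation p = 0.333), against 0.828 over all coding genes and 0.684 over the short coding genes. KRT5, KRT2, KRT79 and KRT9 had a peak in all 4 libraries. KRT5, the type II chain of basal keratinocytes (chr12:52514575-52520394), had a peak near its start (chr12:52519859-52520420 with 20 reads in control replicate 2) and 1 near its end (chr12:52514878-52515339 with 22 reads), but neither place was covered in all 4: the start lacked a peak in lactate replicate 2 and the end in control replicate 3. KRT2 had 1 peak of 323, 330, 337 and 364 bp with 17, 16, 12 and 12 reads. KRT79 had 416 bases common to all 4. KRT1, the type II chain of the suprabasal epidermis, and KRT78 had a peak in both control libraries only, KRT1 with 30 and 23 reads and KRT78 with 29 and 19. The KRT78 peaks lay at different places and shared no base: chr12:52848629-52849057 in control replicate 2 and chr12:52838892-52839216 in control replicate 3. KRT3, of the corneal epithelium, lacked a peak in lactate replicate 3 only, and KRT76, of the palate, had one in control replicate 3 only.

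Among chains that assemble together, several pairs differed in their peaks. KRT5 had a peak in all 4 libraries, while KRT14, its basal layer partner, had none and lay 9918 bp from the nearest peak of any library, the one at the start of KRT9. KRT1 had a peak in both control libraries, while KRT10 lay 20750 bp from the nearest. KRT8 had a peak in 3 libraries, while KRT18 had none. KRT16 and KRT17, partners of the KRT6 chains, had none either, at 19147 and 7339 bp. Other pairs shared a library: KRT1 and KRT9, which pair in palm and sole epidermis, each had one in control replicates 2 and 3, and KRT3 and KRT12, of the cornea, both had one in lactate replicate 2. These partners were named after their values were seen.

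The type I cluster of chromosome 17 held far fewer peaks. It runs over 971.911 kb (chr17:40653665-41625575) with 62 members, 28 KRT and 34 KRTAP, of which 9, 6, 4 and 6 carried a peak and 47 had none in any library. The cluster held 12, 11, 7 and 9 peaks, or 12.3, 11.3, 7.20 and 9.26 per Mb, against 42, 48, 30 and 29 per Mb in the 500 kb on either side. The KRT genes gave 6, 4, 3 and 4 of 28 and the KRTAP genes 3, 2, 1 and 2 of 34. The longest stretch without a peak was 138.770 kb and held 6 hair shaft chains, from KRT33A to KRT38. Members without a peak lay a median of 26032 bp from the nearest peak of any library, with a range of 1354 to 65477 bp.

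KRT9 (chr17:41565836-41572059) was the only member of this cluster with a peak in all 4 libraries, over its start, with 14, 25, 20 and 26 reads and 329 bases common to all 4. KRT28, of the inner root sheath, and KRT36, of the hair shaft and tongue, had a peak in both control libraries only, with 15 and 19 reads at KRT28 and 17 and 16 at KRT36. KRT24 and KRT12, the corneal type I chain, each had a peak in 1 library, control replicate 2 and lactate replicate 2. Raising the peak threshold to a −log10 q of 5 left 0 of the 62 members with a peak in all 4 libraries, so the KRT9 count rests on peaks near the threshold in at least 1 list.

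**Figure D4:**
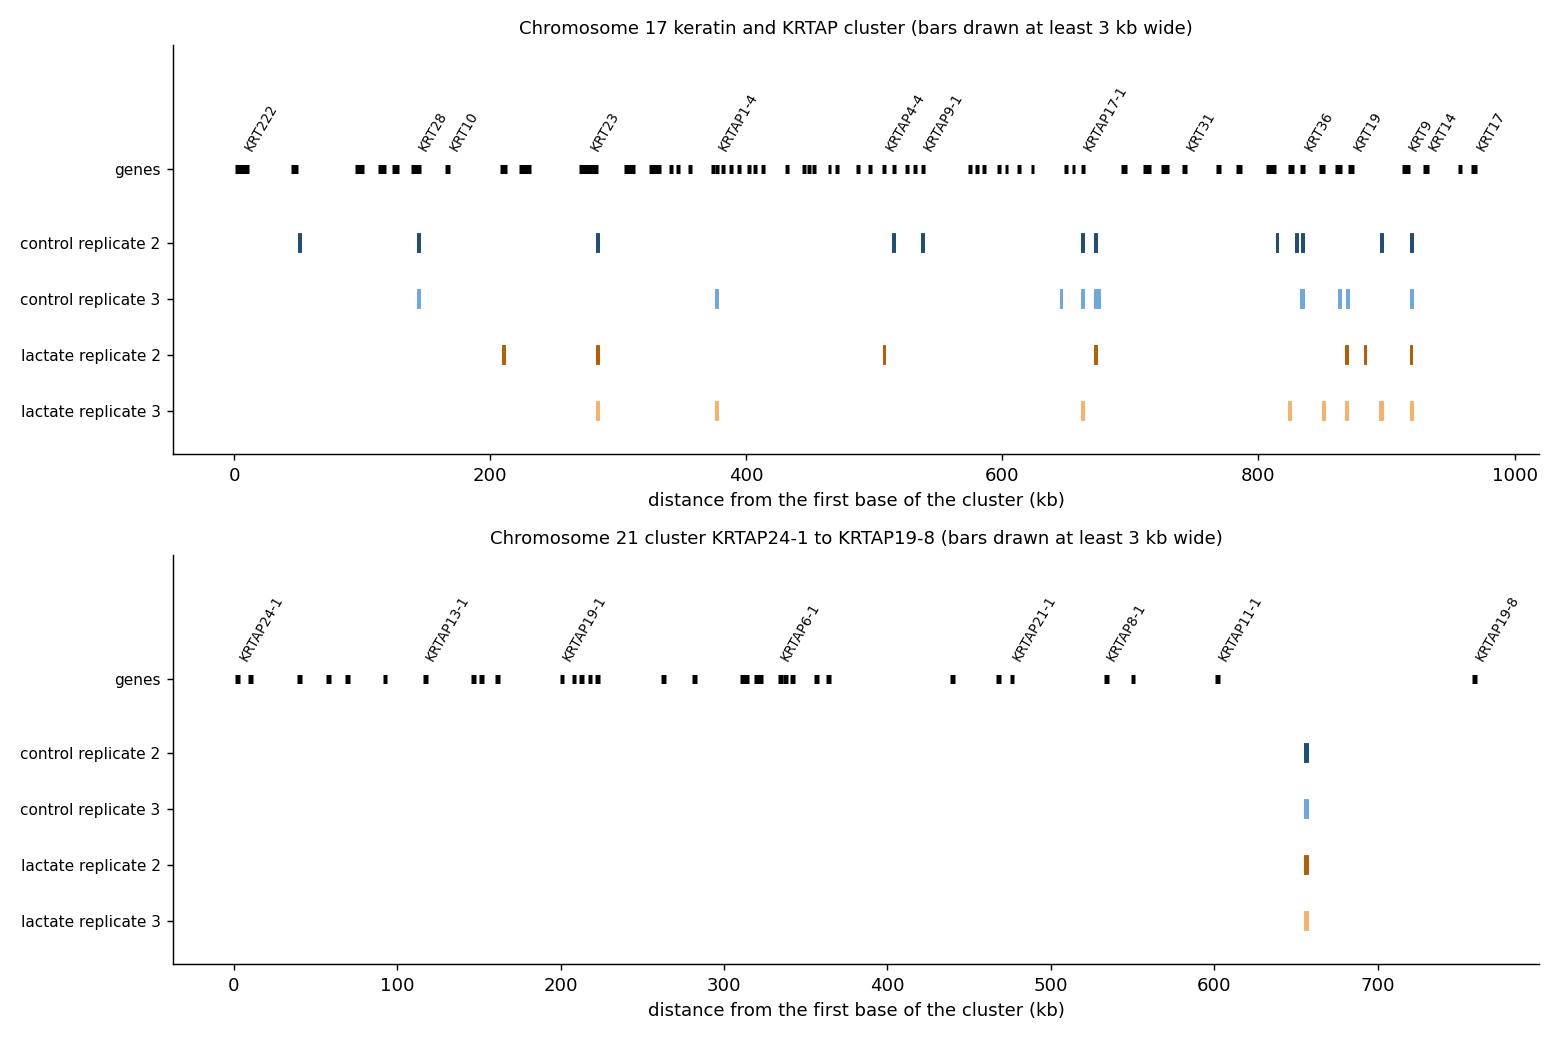
Peaks of the 4 libraries under the genes of the chromosome 17 cluster (upper panel) and of the chromosome 21 cluster KRTAP24-1 to KRTAP19-8 (lower panel), in kb from the first base of each, with narrow bars drawn 3 kb wide. The upper cluster holds 12, 11, 7 and 9 peaks, and the lower one holds 1 per library, at the same place, between KRTAP11-1 and KRTAP19-8.

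The KRTAP cluster of chromosome 21 from KRTAP24-1 to KRTAP19-8 had no member with a peak. It spans 759.168 kb (chr21:30280309-31039476) with 33 genes, including the KRTAP13, KRTAP19, KRTAP6 and KRTAP20 families, and 0 of them had one in any library. This stayed at 0 with windows of 3 kb on either side. A stretch of 654.683 kb with 32 of the 33 members held no peak in any of the 4 lists. The 500 kb on either side were also poor in peaks, with 9, 9, 7 and 6 per Mb.

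Each library had exactly 1 peak in this cluster, and all 4 lay at the same place. It ran over chr21:30934992-30936792 in control replicate 2, chr21:30935015-30936754 in control replicate 3, chr21:30935041-30935979 in lactate replicate 2 and chr21:30935035-30935955 in lactate replicate 3. The widths were 1801, 1740, 939 and 921 bp, so both control peaks were wider than both lactate peaks, and 47, 43, 31 and 42 reads lay at the summits. The peak lay 53412 bp from KRTAP11-1, the nearest member, and 101367 bp from KRTAP19-8 in control replicate 2.

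The 11 KRTAP5 genes, which encode ultra-high-sulfur proteins of the hair cuticle, lie in a pair of clusters on chromosome 11 that differed. KRTAP5-7 to KRTAP5-11 (chr11:71526267-71583875) had 0 members with a peak, and the cluster held 1 peak, of 307 bp, in lactate replicate 3. KRTAP5-1 to KRTAP5-6 (chr11:1583342-1698755) held 18, 12, 10 and 12 peaks over 11.1, 9.01, 5.48 and 5.16% of the bases, within flanks covered over 33.2, 33.8, 12.6 and 14.3%. Its genes with a peak numbered 2, 2, 1 and 3 of 6. KRTAP5-5 had one in all 4 libraries, with 10, 15 and 18 reads at the summit of highest fold in the first 3, but no base was common to all 4. With a −log10 q of at least 5, with equal lists and with no flank, 0 of these 6 genes had a peak in all 4 libraries. KRTAP5-1 lacked a peak in lactate replicate 2, and KRTAP5-2 had one in lactate replicate 3 only.

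The KRTAP10 and KRTAP12 genes of chromosome 21 formed the densest cluster. They encode high-sulfur proteins of the hair shaft, and all 16 lie inside the span of TSPEAR (chr21:44497893-44711572), a gene of hearing and tooth and hair follicle development, so every peak at a member is also a peak of TSPEAR. The cluster covers 161.064 kb (chr21:44537981-44699044) and held 30, 31, 23 and 20 peaks, or 186, 192, 143 and 124 per Mb. All 16 genes carried a peak in each control library, against 13 in each lactate library. The flanks were also rich, with 182, 184, 163 and 173 peaks per Mb and 23, 23.9, 13.0 and 12.9% of bases under peaks. The cluster itself had 18.0, 16.8, 8.51 and 7.17% of its bases under peaks, less than its flanks in every library.

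Within TSPEAR the member windows were covered more than the rest of the gene. Peaks lay over 33.5, 31.8, 16.6 and 15.2% of the member window bases and over 25.1, 25.3, 13.3 and 11.6% of the other bases of TSPEAR. Counted over the cluster, 40.1, 42.4, 17.5 and 14.3% of the bases of the gene spans lay under peaks and 15.5, 13.9, 7.49 and 6.35% of the bases between them. The KRTAP spans were thus covered more than the sequence between them in every library. Members of this cluster resemble each other in sequence, and the part of read placement in this difference was not tested.

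**Figure D5:**
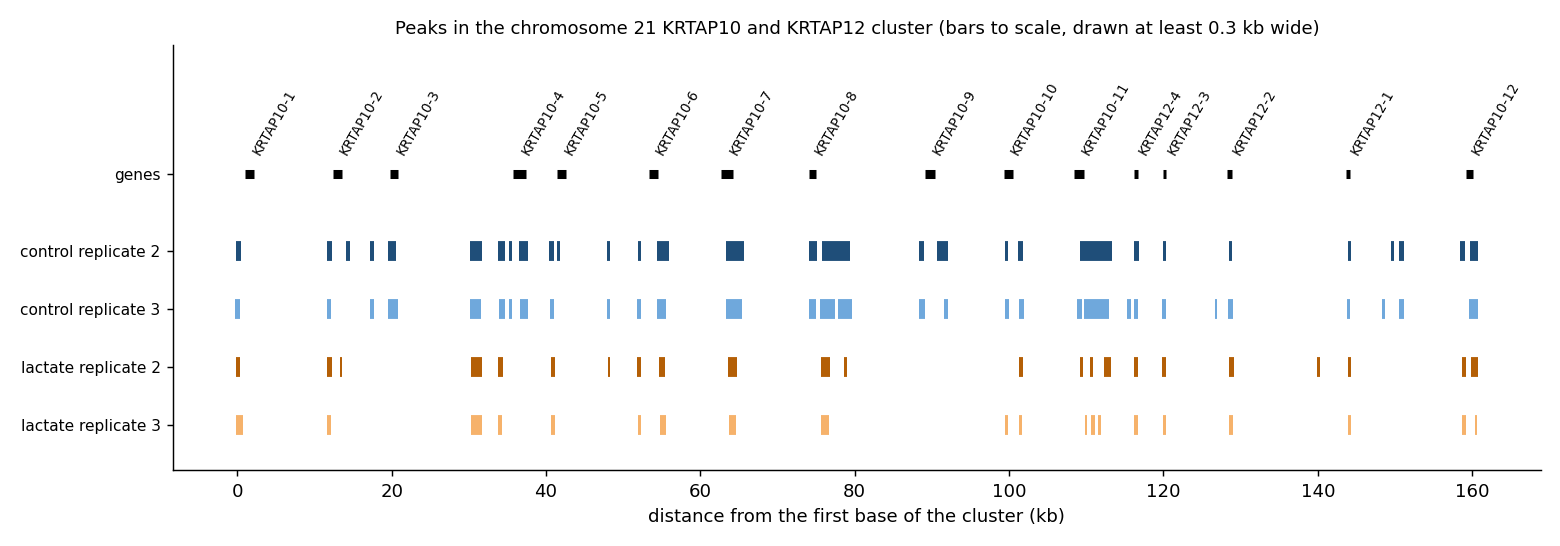
Peaks of the 4 libraries (coloured bars) under the 16 KRTAP10 and KRTAP12 genes (black bars), in kb from the first base of the cluster, with narrow bars drawn 0.3 kb wide. The widest control peaks lie beside KRTAP10-8 and KRTAP10-11, and the lactate rows show narrower peaks at most of the same places. No lactate peak lies in the windows of KRTAP10-3, KRTAP10-4 and KRTAP10-9, which reach 1 kb beyond the drawn genes.

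The genes KRTAP10-3, KRTAP10-4 and KRTAP10-9 had a peak in both control libraries only. At KRTAP10-4 (chr21:44573729-44575371), the longest KRTAP gene, 1636 and 1508 window bases lay under peaks in control, with 28 reads at the summit of highest fold in each. KRTAP10-3 had 1002 and 1240 bases under a peak and KRTAP10-9 had 1322 and 756. These calls depended on the settings: with equal lists KRTAP10-3 and KRTAP10-9 had a peak in 1 control library, and with a flank of 3 kb KRTAP10-4 had one in both lactate libraries too. KRTAP10-9 was also down to 1 control library with no flank and with a −log10 q of at least 5. With the same number of peaks taken from each list, 12 of the 16 genes had a peak in all 4 libraries. With no flank, 6 did, so at the other 7 of the 13 genes with a peak in all 4 libraries the call rests on peaks that touch the flank and not the gene in at least 1 library.

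Each of the 4 KRTAP12 genes had a peak with its summit in the first 500 bp of the gene in all 4 libraries. Of the 80 KRTAP genes with an entry these 4 (5%) were the only ones, against 1.37% of all genes with an entry. The KRTAP12 genes span 410 to 739 bp, so a summit inside them cannot lie far from the start. KRTAP12-1 had its summit 133, 139, 87 and 81 bp after the start, and KRTAP12-4 had it 111, 127, 175 and 133 bp after. At KRTAP12-2 (chr21:44666189-44666927) the peak was 423, 600, 552 and 497 bp wide with 28, 33, 42 and 36 reads at the summit. Its fold placed it in the top 54.3% of peaks in control replicate 2, 4.86% in control replicate 3, 0.171% in lactate replicate 2 and 1.68% in lactate replicate 3. KRTAP12-3 had 28, 45 and 25 reads at the summit in the first 3 libraries.

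At 6 of the 9 KRTAP10 genes with a peak in all 4 libraries, both control libraries had more window bases under peaks than both lactate libraries. KRTAP10-7, under 1 peak of 2342, 2084, 1071 and 962 bp, had 1910, 1891, 1071 and 962 window bases covered, and KRTAP10-6 had 1142, 1150, 733 and 805. KRTAP10-8 had 1239, 1381, 321 and 302 bases covered, and its control peaks, with 40 reads at the summit in each, ranked within the top 0.400 and 0.538% of their lists by fold. KRTAP10-11 had 1457, 1566, 484 and 425 bases covered. KRTAP10-1, KRTAP10-2 and KRTAP10-12 did not follow this order. At KRTAP10-1, 442, 341, 296 and 686 bases were covered, with 37, 32, 54 and 57 reads, by a peak whose summit lay outside the gene. KRTAP10-2, KRTAP10-5, KRTAP10-10 and KRTAP10-12 had between 219 and 453 bases common to all 4 libraries.

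Both lactate libraries had fewer member bases under peaks than both control libraries, as had coding genes at large. The member windows held 36767, 37721, 17951 and 17651 bases under peaks, or 4.16, 4.27, 2.03 and 2.0% of the window bases. The control mean was 37244 ± 675 bases (SD, n = 2) and the lactate mean 17801 ± 212 (SD, n = 2), so that the means stood at a ratio of 0.478 (p = 0.333 by the exact permutation test). Over all coding genes the windows held 2.28, 2.3, 1.2 and 1.19% (ratio 0.522), and over the short coding genes 4.64, 4.80, 2.17 and 2.12% (ratio 0.455). The members' ratio lay between those of these backgrounds.

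By cluster, the ratio of window bases was 0.422 on chromosome 12, 0.629 on chromosome 17 and 0.487 at the KRTAP10 and KRTAP12 genes, each with both lactate libraries below both control libraries and p = 0.333 by the exact permutation test. KRTAP5-1 to KRTAP5-6 gave 0.706, from 1012, 1315, 691 and 951 bases. Whether these ratios differ between clusters was not tested. Peaks in the 6 clusters together numbered 110, 106, 72 and 67, a ratio of 0.644 (exact permutation p = 0.333). The number of genes with a peak depended on the length of the lists: with 37951 peaks of lowest p-value taken from each, 32, 34, 33 and 34 members had a peak (ratio 1.02, exact permutation p = 1), and over all coding genes the ratio was 1.02 as well. The bases under peaks kept a ratio of 0.687 with these equal lists.

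Genes that work with keratins were examined on fixed lists. Of 18 desmosome and plakin genes, which anchor keratin filaments to the membrane, 8, 8, 10 and 10 had a peak, and 7 had one in all 4 libraries: JUP, PKP1, PKP3, DSG4, PLEC, EVPL and PPL. The count was higher in both lactate libraries than in both control libraries (p = 0.333 by the exact permutation test). The window bases under peaks of these genes went the other way, at 23046, 26742, 12680 and 11643 (ratio 0.489). The genes with a peak in some libraries were DSP, DSG3, PKP2, PKP4 and DST. Of 39 epidermal differentiation genes, which build the cornified envelope, 6, 4, 4 and 3 had a peak, 1 had one in all 4 libraries and 31 had none. IVL, an envelope precursor, and TCHH, which binds keratin in the inner root sheath, had a peak in both control libraries only. Of 15 regulators of keratin genes, 9, 11, 10 and 9 had a peak, and 6 had one in all 4: GRHL1, GRHL3, OVOL1, HOXC13, FOXN1 and LEF1. HOXC13 and FOXN1 are known as activators of hair keratin genes. Over all coding genes the shares ranged from 37.9 to 46.9% in a library, with 29.6% in all 4. The epidermal differentiation genes are short, with a median span of 1698 bp, and the short coding genes, at 10.9 to 16.6% in a library and 7.68% in all 4, are nearer to them in length.

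Markers of cell types were read in the same way. Of the hepatocyte genes, HNF4A had a peak in all 4 libraries, and ALB, APOB, TTR, AFP, FOXA1 and FOXA2 had none in any. All 5 stromal and endothelial genes, COL1A1, COL1A2, PDGFRB, PECAM1 and CDH5, had a peak in all 4 libraries. Over all coding genes 29.6% had a peak in all 4 libraries and 44.7% had none in any. The median span was 15542.5 bp in the hepatocyte list and 38094 bp in the stromal and endothelial list. Cell identity was not tested with these lists.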

How the data were processed

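H4K5la ChIP-seq libraries of PLC/PRF/5 cells were compared as 2 control and 2 lactate peak lists, grouped by the sample labels. Per the labels' protocols, Trimmomatic trimmed the reads, Bowtie2 aligned them and Picard took out duplicates. The submitters' processing notes name hg38 and, with no roles, MACS2 2.2.6, Bowtie2 2.3.4.2, Trimmomatic 0.38, FastQC 0.11.7, Picard 2.18.11, SAMtools 1.9, RSEM and featureCounts 1.6.3. Each deposited list holds the peaks of 1 library, with the authors' score, fold enrichment (a ratio), and p-value and q-value as −log10 for each peak. The score was not used. The lowest deposited −log10 q lay between 2.00 and 2.02, so a region without a peak may carry the mark below this threshold. The lists give no read totals, so depth is known only at summits: the authors' fold and −log10 p were solved for whole reads with the formulas of MACS2, taken to be the caller, and these were found for 100% of 300 peaks tried in each library (tolerance 0.01 reads), with 1 solution for 95.3 to 99.7% of them. Of the member peaks 0, 5, 1 and 3 had more than 1 solution in the 4 libraries, and their reads are not printed.

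Gene spans and promoters came from RefSeq (GRCh38.p14), in which 114 of the 149 members had a promoter entry. Overlaps and exact permutation tests were computed with Python 3.11.15, numpy 2.4.6 and pandas 2.3.3. Reads at summits were solved with scipy 1.17.1, and figures were drawn with matplotlib 3.10.9. The overlap code and the recovery of reads were checked on simulated peaks, and the permutation test code was not. GPC3, a marker of the hepatocyte list, is not autosomal and was left out. Some marker results are not reported here. Members and lists were chosen with earlier results of these data known. Members named are KRT7, KRT8, KRT18 and KRT19, those with a peak in all 4 libraries or in both libraries of 1 group only, and the 10 others with the best mean fold rank. Other members named were chosen after their values were seen. Alternatives were a stricter q, equal numbers of peaks, other windows and overlap rules, each library left out, and a replicate block.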

Additional observations from a re-analysis of the deposited data

How the results depend on the processing

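With the same number of peaks, 37951, taken from each library, the ratio of lactate to control for members with a peak was 1.02 in place of 0.744, because the longer control lists lose their weakest peaks. The other results recomputed under alternatives, namely the window bases of all members, the peaks in the clusters and the bases at KRT7, KRT8, KRT18 and KRT19, kept their direction in each. Counts and ratios by keratin group, by cluster and for the partner lists were not recomputed with their tests. Across the stricter threshold, the equal lists, the windows and the overlap rules, the ratio of window bases ranged from 0.453 to 0.687, that of peaks in the clusters from 0.607 to 0.908, and that of bases at KRT7, KRT8, KRT18 and KRT19 from 0.334 to 0.542. The share of members with a peak in all 4 libraries ranged from 11.4% with no flank to 18.1% with a flank of 3 kb.

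Leaving out 1 library at a time gave ratios of 0.733 to 0.756 for members with a peak, 0.472 to 0.484 for window bases, 0.620 to 0.667 for peaks in the clusters and 0.222 to 0.445 for the bases at KRT7, KRT8, KRT18 and KRT19, and a share in all libraries left of 17.4 to 18.8%. With the replicate number as a block the ratios were 0.744, 0.478, 0.643 and 0.320, and the smallest p the block allows is 0.5. The labels do not say that a replicate number marks a shared culture or day, and 2 pairs are too few to check it. With 2 libraries a group, no result could pass the usual threshold, so the tests say nothing about stability. Peaks with few reads at the summit, 9 at the lowest, lie near the calling threshold, and their absence in a library was not tested as a difference in the mark.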
